A study of Mus musculus with 6 samples.

Results

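The mature arms of the neighbouring hairpins miR-143 and miR-145a were followed in mouse pancreas. They were selected by name alone, as the rows of miR-143 or miR-145a with a 5p or 3p suffix (mmu-miR-143-3p, mmu-miR-143-5p, mmu-miR-145a-5p and mmu-miR-145a-3p), which gave 4 of the 1414 rows of the deposited small RNA table (1104 known mouse miRNA rows and 310 predicted ones). The table holds 6 libraries, 3 per group, all from pancreas of wild-type C57BL/6 mice weighing 22 to 25 g. Control mice (replicates 43, 44 and 45) had 7 hourly intraperitoneal saline injections. Model mice (replicates 56, 57 and 59) had caerulein, which acts on the cholecystokinin receptor and overdrives acinar secretion, at a labelled 50 mg/kg on the same schedule, with lipopolysaccharide (LPS) joined to the last injection, and tissue was collected 24 hours after the first. Since every model mouse had both agents, the effects of caerulein and LPS cannot be told apart. Age and sex of the mice, and whether a library is a single mouse, are not given in the sources used here. All p-values therefore rest on a spread between libraries that may be in part technical.

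miR-143 and miR-145a are transcribed together from a smooth muscle-enriched host gene under control of serum response factor and its cofactor myocardin. In vessel walls and gut they help to keep smooth muscle cells in the contractile state, and they are also found in pericytes and fibroblasts. In pancreas these cells lie around vessels and ducts and make up a small part of the tissue. The main products are the 3p arm of miR-143 and the 5p arm of miR-145a, and the opposite arms are usually called passenger strands.

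In the GRCm38 assembly with the GENCODE M21 annotation, Mir143 occupies chromosome 18 from 61649196 to 61649258 and Mir145a the stretch from 61647825 to 61647894, both on the minus strand and 1301 bases apart. Both hairpins fall inside the RefSeq span of the long noncoding RNA gene Carmn (61645878 to 61665538), also called Mir143hg. The shorter GENCODE M21 model of Carmn ends 366 bases before the miR-143 hairpin. No other known row of the table carried the same sequence as any of the 4 arms, and miR-143-3p, miR-145a-5p and miR-145a-3p shared their seed (bases 2 to 8) with no other known row. miR-143-5p shared its seed with miR-1930-3p. The arms were 21 to 23 bases long, and their GC content ran from 36.4% in miR-145a-3p and 47.6% in miR-143-3p to 52.2% in miR-145a-5p and 61.9% in miR-143-5p, beside a median of 50% over all known rows.

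Total counts per library ran from 1943693 (control 45) to 3006220 (model 57). Levels below are TMM-scaled CPM, in which counts are divided by the library's total over the tested rows multiplied by its TMM factor. No member was at 0 in any library. Tests are edgeR's quasi-likelihood test over the 499 rows that passed its filter on low counts, with Benjamini-Hochberg adjustment and a threshold of 0.05. By this rule 1.20% of rows were called in either direction. Pancreatic markers were present in every library. The 6 acinar rows of miR-216a, miR-216b and miR-217 summed to 36613 to 51778 CPM in control and 29475 to 32510 CPM in model libraries.

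No tested arm of miR-143 or miR-145a passed the threshold in pancreatitis. miR-145a-5p, with 1.50 times the control mean, lay higher in all 3 model libraries than in any control. The levels of the other 3 arms overlapped between groups. Over all tested rows, 31.1% had no overlap in either direction and 14.4% in the upward direction. Of the 4 arms, 3 passed the filter on low counts. By edgeR or by DESeq2, which called 11.3% of the 390 rows it gave an adjusted p, 0 of these 3 were called. An unadjusted edgeR p under 0.05 was seen in 1 of 3, beside 23.8% of all tested rows. In bulk tissue, fewer cells of a type and less RNA per cell cannot be told apart.

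The dominant product was miR-143-3p, whose known targets include the ETS family factor Elk1, a rival of myocardin at smooth muscle genes. It had 43062, 51202 and 24109 counts in control libraries 43, 44 and 45, and 45352, 52787 and 45972 in model libraries 56, 57 and 59. Scaled, these were 16585, 24925 and 14457 CPM in control and 16806, 16192 and 13741 CPM in model libraries. Control 44 stood above the other 5 libraries, which lay close together, and the groups overlapped. The means were 18656 ± 5532 CPM in the controls and 15580 ± 1622 CPM in the model group (SD, n = 3 each). The log2 fold change was -0.26 (SE 0.21, 95% interval -0.75 to 0.24, edgeR adjusted p = 0.537). Its size rested on control 44, without which it was -0.0063, and its sign turned when libraries were scaled by total counts alone (0.04) or by the totals behind the authors' RPM values (0.51). At ranks 18 to 26 among known rows, miR-143-3p belonged to the abundant miRNAs of the tissue in all 6 libraries, with 1.24% to 2.15% of all counts in control and 1.59% to 1.82% in model libraries.

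Its partner miR-145a-5p is known to target Klf4 and Klf5, factors that oppose the contractile programme. It had 3717, 2574 and 3319 counts in control libraries 43, 44 and 45, and 6946, 7656 and 7046 in model libraries 56, 57 and 59. This gave 1432, 1253 and 1990 CPM in control and 2574, 2348 and 2106 CPM in model libraries. Every model library lay above every control, with control 45 close to model 59. Such a gap between groups in either direction was seen in 31.1% of tested rows, and in the upward direction in 14.4%.

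The mean of miR-145a-5p was 1558 ± 385 CPM in the controls and 2343 ± 234 CPM in the model group (SD, n = 3 each). The log2 fold change was 0.59 (SE 0.23, 95% interval 0.05 to 1.13), and it did not pass the threshold (edgeR adjusted p = 0.175; unadjusted p = 0.0371, under 0.05 as in 23.8% of rows). Without control 45 it was 0.78 (edgeR adjusted p = 0.0961), and without control 44 it was 0.44 (edgeR adjusted p = 0.320). With upper quartile factors it was 0.32 (edgeR adjusted p = 0.478). With the totals behind the authors' RPM values it was 1.40 and passed (edgeR adjusted p = 0.0109), a scaling that moved the median log2 fold change of all tested rows to 0.79 and called 25.3% of them. In the order of known rows, miR-145a-5p stood at ranks 71 to 88 in control and 64 to 73 in model libraries.

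The lesser arm miR-145a-3p had 485, 447 and 178 counts in control libraries 43, 44 and 45, and 464, 477 and 499 in model libraries 56, 57 and 59. Its levels were 187, 218 and 107 CPM in control and 172, 146 and 149 CPM in model libraries. Control 45 was the lowest of all 6 libraries and control 44 the highest, with the model libraries between them. The means were 170 ± 57.2 CPM and 156 ± 14.1 CPM (SD, n = 3 each), with a log2 fold change of -0.13 (SE 0.30, 95% interval -0.83 to 0.57, edgeR adjusted p = 0.834). That small difference was -0.40 without control 45 and 0.07 without control 44, and it was positive with total counts alone (0.16) and with the totals behind the authors' RPM values (0.60).

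The passenger arm miR-143-5p was near the limit of detection. It had 11, 4 and 4 counts in control libraries 43, 44 and 45, and 10, 10 and 9 in model libraries 56, 57 and 59, which is 1.95 to 4.24 CPM in control and 2.69 to 3.71 CPM in model libraries. It did not pass the filter on low counts. The ratio of its TMM-scaled rates, model over control, was 1.04, and counting error alone allowed 0.562 to 1.96 (95% exact Poisson interval). Ratios inside those bounds are compatible with these counts. The interval leaves out the spread between libraries, so larger differences could also go undetected at this depth.

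**Figure D1:**
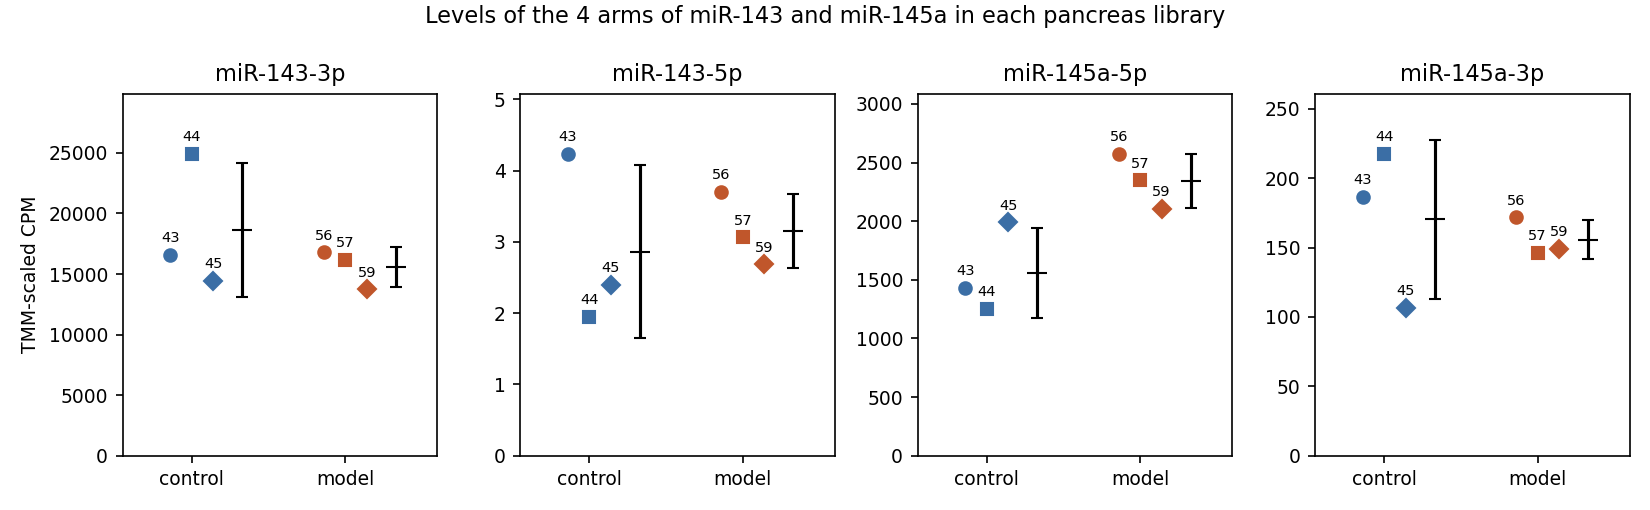
TMM-scaled CPM (linear axes from 0) of miR-143-3p, miR-143-5p, miR-145a-5p and miR-145a-3p in the 3 control and 3 model libraries; points are single libraries with their replicate numbers, bars the mean and SD of each group. The groups overlap for 3 of the arms, while the model libraries of miR-145a-5p, at 2106 to 2574 CPM, all lie above the controls at 1253 to 1990 CPM.

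The control libraries differed from one another more than the model libraries did in each of the 4 arms, a difference in spread that was not tested. On the log2(CPM + 1) scale, the SD within the control group was 0.41 for miR-143-3p, 0.34 for miR-145a-5p, 0.54 for miR-145a-3p and 0.43 for miR-143-5p. Within the model group it was 0.15, 0.14, 0.13 and 0.18 in that order. Over the 200 known rows with a mean of at least 100 CPM, the median SD was 0.28 in control and 0.21 in model libraries. miR-143-5p, with 4 to 11 counts per library, lay far below that minimum. Its SDs include counting error and cannot be set against those medians. The 2 main arms also took opposite orders among the controls: miR-143-3p was highest in 44 and lowest in 45, and miR-145a-5p was lowest in 44 and highest in 45. Set against the mean of the other controls on the log2 scale, control 45 differed by -0.49 in miR-143-3p, by -0.91 in miR-145a-3p and by 0.57 in miR-145a-5p, where the median of the 200 rows was -0.0042. Control 45 was also the library with the fewest counts. Whether depth or another property of that library has a part in these differences was not tested.

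A ratio of counts within a library does not depend on scaling between libraries. Counts of miR-143-3p exceeded those of miR-145a-5p 11.6, 19.9 and 7.26 times in control libraries 43, 44 and 45, and 6.53, 6.89 and 6.52 times in model libraries 56, 57 and 59. The model libraries were nearly alike and lay below all controls, of which control 45 was the closest. The log2 ratio was 3.57 ± 0.73 in the controls and 2.73 ± 0.05 in the model group (SD, n = 3 each). The difference was -0.84 (two-sided exact permutation p = 0.1, the smallest that 3 against 3 can give; adjusted p = 0.183 over 11 ratios). It was -0.46 without control 44 and -1.19 without control 45. Since ligation efficiency differs between sequences, the size of such a ratio is not a ratio of molecules.

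The arms of the miR-145a hairpin were not kept in a constant proportion among the controls. The 5p arm had 7.65, 5.75 and 18.5 times the counts of the 3p arm in control libraries 43, 44 and 45, and 14.9, 16.0 and 14.1 times in model libraries 56, 57 and 59. Control 45 lay above the model libraries and the other 2 controls below them, so the groups overlapped (20.0% of tested hairpins had no such overlap). The log2 ratio was 3.22 ± 0.88 in the controls and 3.91 ± 0.09 in the model group (SD, n = 3 each). The difference was 0.68 (SE 0.46, 95% interval -0.41 to 1.78, limma adjusted p = 0.563 over 125 hairpins, of which 0.800% were called). Without control 45 it was 1.18 (limma adjusted p = 0.111), and without control 44 it was 0.33. For miR-143 the 3p arm exceeded the 5p arm 3589 to 10241 times in control and 4123 to 4799 times in model libraries, with only 4 to 11 counts of the 5p arm per library, and the hairpin was not tested with the minimum of 10 mean counts on each arm. The remaining pair, miR-143-3p and miR-145a-3p, kept a narrower proportion: 88.6, 114 and 135 in control and 97.5, 110 and 91.9 in model libraries.

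The main arms were then set against 5 markers of other cell types, again as ratios within a library. Acinar cells were represented by miR-216a-5p, endothelium by miR-126a-3p, epithelium by miR-200c-3p, fibroblasts and stellate cells by miR-199a-3p, and leukocytes by miR-142a-3p. For 3 of these, another row of the same list had a log2 fold change of the opposite sign, and none of these 6 rows passed the edgeR threshold. miR-199a-5p, the most abundant fibroblast and stellate row, had a log2 fold change of -0.46 against 0.49 for miR-199a-3p, and miR-126a-5p had 0.12 against -0.36 for miR-126a-3p. The most abundant leukocyte row, miR-150-5p, had -0.35 against 1.45 for miR-142a-3p, so these ratios belong to the marker rows used and not to a cell type. Over these 10 ratios and the one above, no p could fall below 0.1, and the smallest adjusted p was 0.183.

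Against miR-216a-5p, the log2 ratio of miR-145a-5p was -4.12, -4.20 and -4.16 in control libraries 43, 44 and 45, and -3.15, -3.15 and -3.19 in model libraries 56, 57 and 59. Both groups were tight, with SDs of 0.04 and 0.02, and lay 0.99 apart, a ratio 1.99 times as high in model libraries (exact permutation p = 0.1, adjusted p = 0.183, n = 3 each). miR-216a-5p itself had a log2 fold change of -0.41 (edgeR adjusted p = 0.219 with SE 0.18), beside 0.59 for miR-145a-5p on the same scale. Other acinar rows took other patterns among controls 43, 44 and 45. miR-216a-3p of the same hairpin was at 1479, 2088 and 1716 CPM, and miR-217-5p at 1414, 909 and 4138 CPM. Ratios to these rows were not formed, so the small spread is shown for miR-216a-5p alone. Against miR-126a-3p the difference for miR-145a-5p was 0.98 (0.48 with overlap against miR-126a-5p, exact permutation p = 0.3) and against miR-200c-3p it was 0.94, with all model libraries above all controls in both of these cases (exact permutation p = 0.1, adjusted p = 0.183, n = 3 each). The levels of miR-216a-5p, miR-126a-3p and miR-200c-3p were themselves lower in every model library than in any control. Since those of miR-145a-5p were higher, the gaps in these ratios follow from the levels and add no separate evidence.

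The same 3 ratios of miR-143-3p differed by less than the spread between controls. They were higher in model libraries by 0.16 against miR-216a-5p (exact permutation p = 0.7), by 0.14 against miR-126a-3p (exact permutation p = 0.7) and by 0.11 against miR-200c-3p (exact permutation p = 0.8), and each turned negative without control 45. Against miR-126a-5p the difference was -0.36 (exact permutation p = 0.5). Control SDs of these ratios were 0.71, 0.33 and 0.45.

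The ratios to miR-199a depended on its strand. For miR-143-3p the log2 ratio to miR-199a-3p was 5.84 ± 0.51 in the controls and 5.12 ± 0.35 in the model group (SD, n = 3 each), a difference of -0.72 with no overlap (exact permutation p = 0.1, adjusted p = 0.183). For miR-145a-5p it was 2.27 ± 0.42 and 2.39 ± 0.34, with overlap and a difference of 0.12 (exact permutation p = 0.9). Against miR-199a-5p, a marker added after the values were seen, the ratio of miR-143-3p overlapped with a difference of 0.24 (exact permutation p = 0.3), and that of miR-145a-5p was higher by 1.07 without overlap (exact permutation p = 0.1). Against the leukocyte miR-142a-3p the difference was -1.81 for miR-143-3p without overlap (exact permutation p = 0.1, adjusted p = 0.183) and -0.98 for miR-145a-5p with overlap (exact permutation p = 0.3, adjusted p = 0.471). miR-142a-3p itself had a log2 fold change of 1.45 (edgeR adjusted p = 0.111 with SE 0.44). Against miR-150-5p, also added later, both differences were positive with overlap, 0.34 for miR-143-3p (exact permutation p = 0.8) and 1.17 for miR-145a-5p (exact permutation p = 0.2). Over the 6 ratios to the added markers, the adjusted p ran from 0.45 to 0.8.

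**Figure D2:**
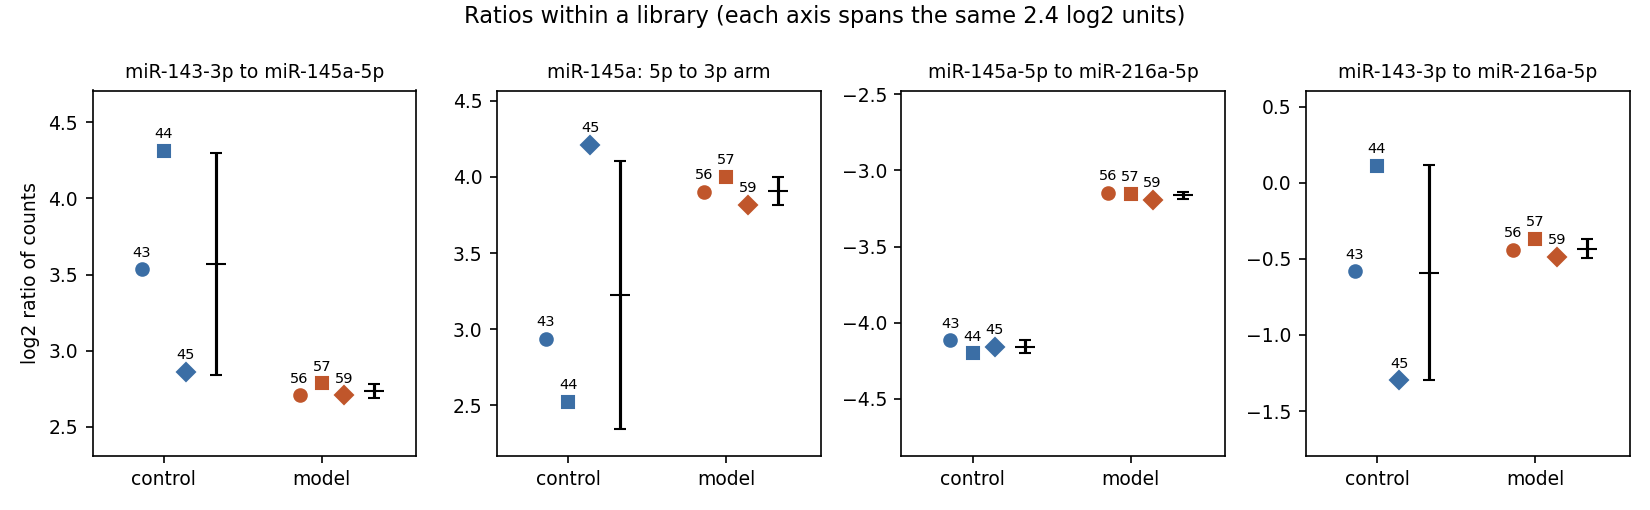
Log2 ratios of counts within each library for miR-143-3p to miR-145a-5p, the 5p to the 3p arm of miR-145a, and miR-145a-5p and miR-143-3p to miR-216a-5p; points are libraries, bars the mean and SD of each group (n = 3), and every axis covers the same length. The ratio of miR-145a-5p to miR-216a-5p separates the groups by 0.99 with little spread, while the controls are widely scattered in the other 3.

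The miRNAs whose profile over the 6 libraries was most like each main arm came from different sets. Likeness was the root mean square (RMS) difference between log2(CPM + 1) profiles, each centred on its own mean, among 197 known rows of at least 100 CPM. The 5 closest to miR-143-3p were miR-204-5p (0.08), miR-151-5p (0.09), miR-27a-3p (0.10), miR-23a-3p (0.11) and miR-10a-5p (0.12), where the median over all rows was 0.41. All 5 were highest in control 44, as miR-143-3p was, and their log2 fold changes ran from -0.36 to -0.22 with edgeR adjusted p from 0.301 to 0.558. Since rows were chosen by likeness over these same libraries, such shared traits follow from the choice. With a minimum of 50 CPM, 3 of these 5 stayed among the closest.

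Closest to miR-145a-5p were miR-24-3p (0.13), miR-24-2-5p (0.14), miR-501-3p (0.14), miR-1198-5p (0.15) and miR-7b-5p (0.19), where the median was 0.52. The groups did not overlap in the first 4 of these, whose log2 fold changes of 0.48 to 0.58 lay near that of miR-145a-5p, with edgeR adjusted p from 0.102 to 0.205. Both traits follow from choosing rows with a like profile, and groups without overlap were seen in 31.1% of all tested rows. The last, miR-7b-5p, overlapped between groups (edgeR adjusted p = 0.652, log2 fold change 0.26 with SE 0.28). The miR-145a-5p profile lay 0.61 from that of its own 3p arm and 0.59 from that of miR-143-3p, farther than the median row. By contrast miR-143-3p and miR-145a-3p lay 0.21 apart.

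**Figure D3:**
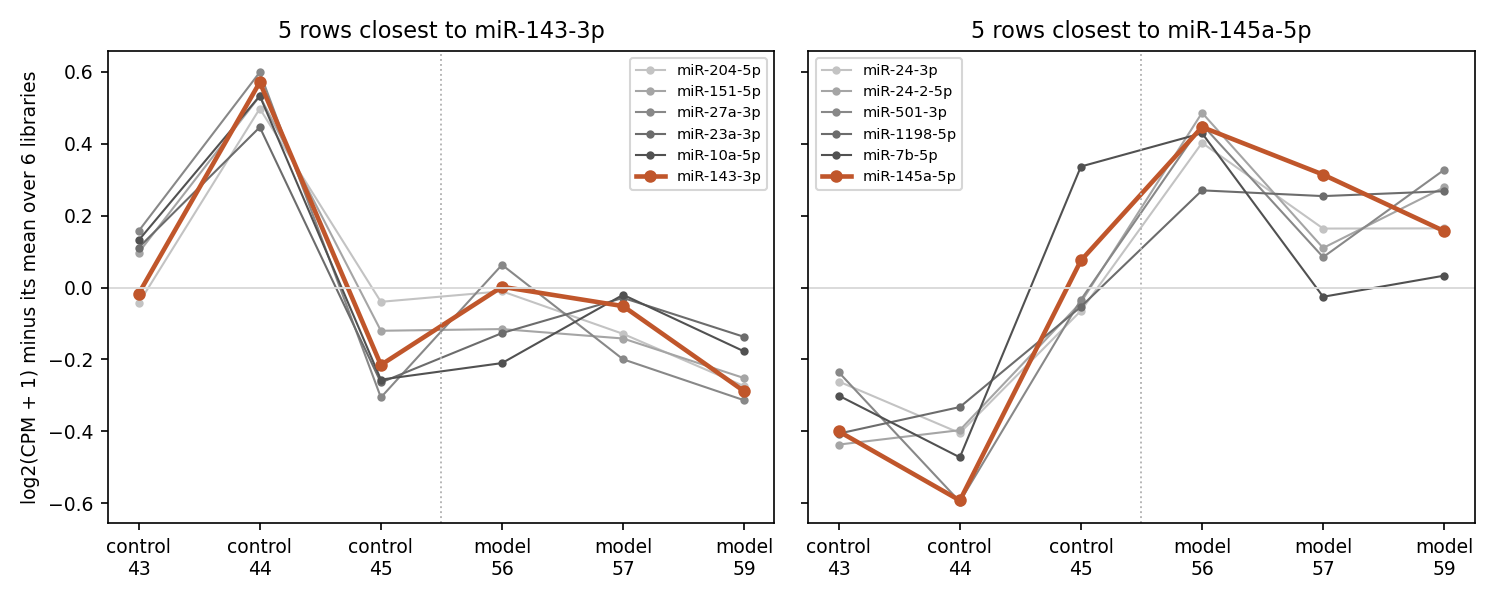
Log2(CPM + 1) minus its own mean, per library, for miR-143-3p (left) and miR-145a-5p (right), in colour, with the 5 known rows closest to each in grey; the dotted line parts control from model libraries. Every line on the left peaks in control 44, and every line on the right peaks in model 56 and has its lowest point in control 43 or 44. The grey rows were chosen for likeness, so shared peaks follow from the choice.

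Products of one other cluster fell on both sides of this division. miR-23a-3p and miR-27a-3p were close to miR-143-3p, and miR-24-3p and miR-24-2-5p to miR-145a-5p, although Mir23a (chromosome 8, 84208518 to 84208592), Mir27a (84208672 to 84208758) and Mir24-2 (84208815 to 84208921) lie next to each other on the plus strand in GRCm38. The deposited mature sequences are shown, 5′ to 3′ with the seed in capitals, because rows from 1 cluster lay on both sides, as the main arms of miR-143 and miR-145a did.
miR-23a-3p: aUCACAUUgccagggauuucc
miR-27a-3p: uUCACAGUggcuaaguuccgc
miR-24-3p: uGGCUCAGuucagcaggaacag
miR-24-2-5p: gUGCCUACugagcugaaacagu

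The 4 sequences are also listed in the RefSeq table for GRCm38.p6. miR-24-3p is made by a second hairpin too, Mir24-1 on chromosome 13 (63301208 to 63301275, plus strand), and reads of the 2 sources cannot be separated. The log2 ratio of miR-27a-3p to miR-24-3p was -0.77, -0.19 and -1.43 in control libraries 43, 44 and 45, and -1.53, -1.56 and -1.67 in model libraries 56, 57 and 59. This is the order seen in the ratio of miR-143-3p to miR-145a-5p for the controls (3.53, 4.31 and 2.86), and once centred the 2 ratio profiles differed by an RMS of 0.08. The ratio of miR-23a-3p to miR-24-3p differed from it by 0.17. These pairs were picked after their values were seen and carry no test. Since miR-27a-3p and miR-23a-3p were chosen for likeness to miR-143-3p, and miR-24-3p to miR-145a-5p, like ratio profiles follow from the choice. The small RMS differences and the shared order of the controls therefore add no separate evidence.

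Other miRNAs of smooth muscle and its change of state, listed by name, gave 1 call among 6 tested of 9 listed, beside 1.20% of all tested rows. At an unadjusted p under 0.05 there were 3 of 6, and DESeq2 called 3 of 6 (miR-490-5p, miR-21a-5p and miR-21a-3p), beside 23.8% and 11.3% of all rows. The edgeR call was miR-21a-3p, the passenger strand of the injury-induced miR-21, with a log2 fold change of 4.55 (edgeR adjusted p = 0.0077 with SE 0.47). The abundant miR-21a-5p was at 12264 CPM in the controls and 20890 CPM in the model group (edgeR adjusted p = 0.0564). miR-490-5p, from an intron of the muscarinic receptor gene Chrm2 and enriched in visceral smooth muscle, was at 21.5 CPM in control and 7.99 CPM in model libraries without overlap (edgeR adjusted p = 0.111, log2 fold change -1.43 with SE 0.43). miR-222-3p, linked to the proliferative state of smooth muscle cells, was at 581 CPM in control and 815 CPM in model libraries without overlap (edgeR adjusted p = 0.244). Groups lay without overlap in 31.1% of all tested rows. On the same list miR-221-3p went the other way, with 126 CPM in control and 76.1 CPM in model libraries and overlap (edgeR adjusted p = 0.332). miR-221-5p had a log2 fold change of -0.06 (edgeR adjusted p = 0.974). miR-145b, which belongs to the miR-145 family, was not analysed here. The list's median log2 fold change was 0.21, beside 0.0050 over all tested rows.

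Markers of the other cells that could carry or dilute these miRNAs were counted in the same way. Over all tested rows, edgeR called 1.20% and 23.8% had an unadjusted edgeR p under 0.05. DESeq2 called 11.3% of the rows to which it gave an adjusted p. In the fibroblast and stellate list 0 of 6 tested rows were called, 0 had an unadjusted p under 0.05 and DESeq2 called 0 (median log2 fold change 0.21). Its most abundant row, miR-199a-5p, was lower without overlap, at 1239 CPM in control and 901 CPM in model libraries (edgeR adjusted p = 0.259). The 2 rows higher without overlap, miR-199a-3p and miR-199b-3p at 0.49 each, are 1 sequence with 1 set of counts. No summed level is given for this list, because a sum would count that sequence under both names. Gaps between groups in either direction were seen in 31.1% of tested rows. In the striated muscle list 0 of 5 tested rows were called by either tool or had an unadjusted p under 0.05. DESeq2 gave no adjusted p for 2 of its rows (median log2 fold change 0.02). That list summed to 77.4 to 173 CPM in control and 101 to 151 CPM in model libraries, far under the level of miR-143-3p. In it miR-1a-1-5p, miR-208a-5p and miR-208a-3p had 0 counts in all controls and 0 to 0.37 CPM in model libraries. In the endothelial list 0 of 2 tested rows were called by either tool and 1 had an unadjusted p under 0.05 (median -0.12), with 40569 to 47691 CPM in control and 32214 to 37878 CPM in model libraries. Leukocyte rows gave 1 call of 5, the neutrophil and monocyte miR-223-3p with a log2 fold change of 2.75 (edgeR adjusted p = 0.0077 with SE 0.31), and the list's median was 1.45. DESeq2 called 3 of 5 (miR-142a-3p, miR-223-5p and miR-223-3p), 3 had an unadjusted p under 0.05, and the most abundant row, miR-150-5p, had a log2 fold change of -0.35. The acinar (6 tested), islet (3), epithelial (5) and erythroid (3) lists gave 0 calls with edgeR, with medians of -0.49, 0.0050, -0.34 and -0.33. In the same order, 5, 1, 3 and 0 of their rows were lower in model libraries without overlap. In each of these lists 0 rows were higher without overlap, beside 31.1% of all tested rows without overlap in either direction. At an unadjusted p under 0.05 these 4 lists had 3, 1, 3 and 0 rows, beside 23.8% of all tested rows, and DESeq2 called 1, 1, 0 and 0 (no adjusted p for 1 erythroid row), beside 11.3%. The part of these shifts in the levels of miR-143-3p and miR-145a-5p was not tested.

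Fold changes of the main arms moved with the typical row when the scaling was changed. The median log2 fold change of tested rows was 0.0050 with TMM, 0.0069 with RLE, -0.29 with upper quartile factors, 0.29 with total counts alone and 0.79 with the totals behind the authors' RPM values. Relative to that median, miR-145a-5p stood at 0.58, 0.58, 0.60, 0.59 and 0.60 in the same order, and miR-143-3p at -0.26, -0.26, -0.26, -0.25 and -0.28. A change of scaling shifts all rows by nearly the same amount. The distances from the median could therefore hardly change between these scalings, and their constancy adds no evidence for either arm. Over all 17 settings, the lead of miR-145a-5p over the median ran from 0.42 to 0.75, and the distance of miR-143-3p from it ran from -0.47 to -0.03.

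**Figure D4:**
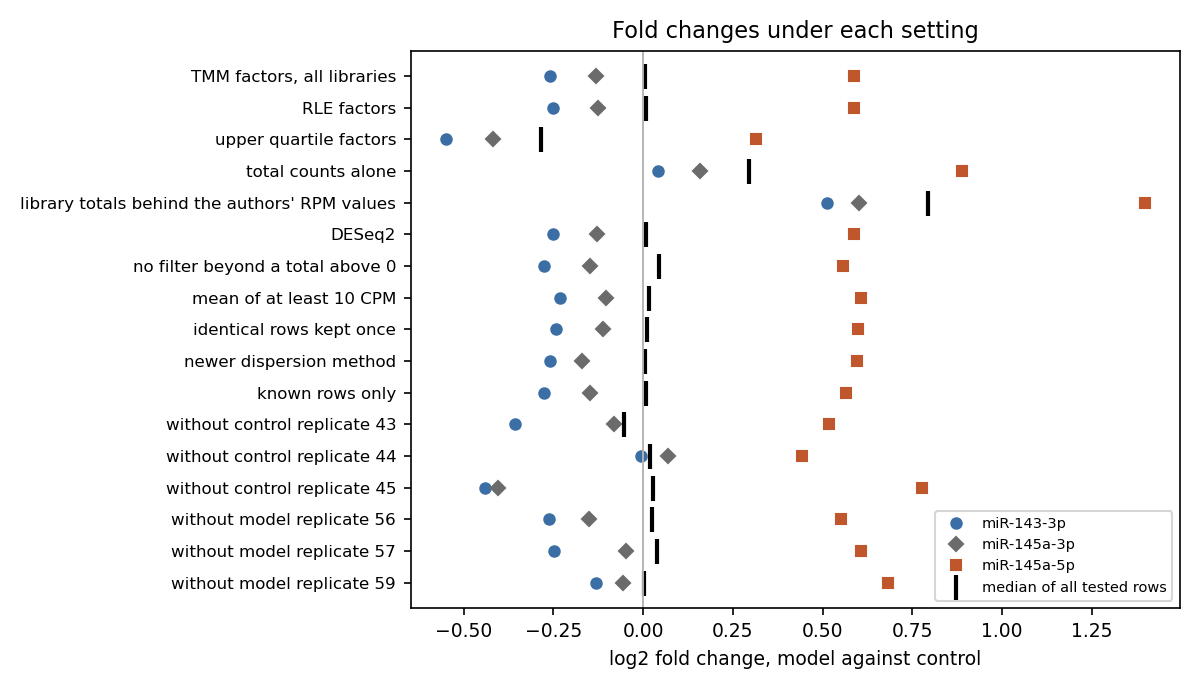
Log2 fold change (model against control) of miR-143-3p, miR-145a-3p and miR-145a-5p under each of 17 settings, with the median of all tested rows as a black mark. Scaling shifts all rows by nearly the same amount, so it could hardly change their distance from the median. Over all settings miR-145a-5p lies right of the median by 0.42 to 0.75.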

How the data were processed

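The authors deposited 1 table of mature miRNA rows with raw read counts, per the file headers. The authors' RPM values, in further columns, served only to recover the library totals behind them (22055639 to 27876715, from rows of at least 100 counts). What those totals include and whether counts were collapsed on the adapters' molecular identifiers are not given in the sources used here. Inserts were 18 to 30 nt, per the labels' protocols. Bowtie2 and GRCm38.p6 appear in the submitters' processing notes without a role. Mature lengths are the deposited values. Of the per-sample columns, 0 were left unmapped.

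Groups came from sample titles. Counts were tested in edgeR 4.0.16 (R 4.3.3) with filterByExpr (minimum count 10, total 15), TMM factors and robust quasi-likelihood fits, and SEs are log2 fold changes over the root of F. Arm ratios (1 count added, at least 10 mean counts on both arms) were fitted with limma 3.58.1. Ratios between miRNAs were tested by exact permutation, and DESeq2 1.42.0 was an alternative. Fits were tested on simulated data. No replicate was a copy of another (chi-square per degree of freedom 98.7 to 265).

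The rule for named rows took the 4 arms, the 5 rows closest in profile to each main arm, the 2 most abundant tested rows of each list and the ratio partners. The text names all of these except some list rows, which it gives by list. That choice, and the naming of miR-490-5p, miR-21a-3p, miR-223-5p, miR-199b-3p and rows at 0, was made with values known. Members and lists were chosen with earlier results of these data known. Sequences of the miR-143 and miR-145a arms are not reported here.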

Additional observations from a re-analysis of the deposited data

How the results depend on the processing

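No paired analysis was possible because the groups share no replicate number. In none of the 16 alternatives did miR-143-3p (adjusted p 0.146 to 0.986) or miR-145a-3p (0.233 to 0.969) pass the threshold. miR-145a-5p stayed positive in all 16 (0.32 to 1.40) and passed only with the totals behind the authors' RPM values (1.40, edgeR adjusted p = 0.0109). With these totals miR-143-3p turned to 0.51 and miR-145a-3p to 0.60, and with total counts alone to 0.041 and 0.16; both scalings move the median of all rows. Leaving out 1 library gave -0.44 to -0.0063 for miR-143-3p, 0.44 to 0.78 for miR-145a-5p and -0.40 to 0.071 for miR-145a-3p. The 5p to 3p ratio of miR-145a ran from 0.33 to 1.18 and never passed. Leaving out 1 library took the ratios to miR-126a-3p, miR-216a-5p and miR-200c-3p for miR-143-3p to -0.035 to 0.29, -0.20 to 0.51 and -0.13 to 0.32, and that of miR-145a-5p to miR-199a-3p to -0.040 to 0.36; the other 7 ratios kept their sign. With miR-199a-5p, miR-126a-5p and miR-150-5p as markers, chosen after seeing the data, the ratios of miR-143-3p turned to 0.24, -0.36 and 0.34, and that of miR-145a-5p to miR-150-5p turned to 1.17; the cause was not tested.

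Calls over all rows, 5 higher and 1 lower, became 7 and 8 with RLE, 6 and 39 with upper quartile, 17 and 1 with total counts, 124 and 2 with the authors' totals, 22 and 22 with DESeq2, 23 and 35 without a filter, 4 and 2 with the newer dispersion method, 8 and 7 with known rows only, and 3 to 5 and 0 to 5 without 1 library. The cause was not tested. Of the 5 rows closest to miR-143-3p, 3 stayed with a minimum of 50 CPM. Depth limits miR-143-5p, with 4 to 11 counts per library.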
